A study of Daphnia magna with 40 samples.

Results

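These 60 microarray probes were the ones whose signal in adult Daphnia magna kept on fluoxetine lay furthest below the signal in every other adult group. They were taken from 6364 probes that stood well above background on all 16 adult arrays without fluoxetine, out of 14338 probes on the array. For each probe the lowest of the 4 other adult group means (fluvoxamine, both nonylphenol doses and acetone) was set against the mean of the fluoxetine group, and the 60 widest gaps were kept. The members were thus chosen by their adult group means. Because these adult arrays chose the members, every adult difference below is a description without a test.

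Whole animals of clone F, 1 parthenogenetic laboratory line, were measured on 40 one-colour arrays in 10 groups of 4. Each life stage, adult and juvenile, had a fluoxetine group (FX40, dosed at 40 µg/L), a fluvoxamine group (FV10, 10 µg/L), a lower and a higher nonylphenol group (NP20, 20 µg/L, and NP60, 60 µg/L), and a group with acetone on its own, the carrier that all groups received. These are the labelled doses; the series text names 80 ppb for fluoxetine and 30 ppb for fluvoxamine. Juveniles were under 1 day old at the start, were exposed for 3 days and were pooled by 20. Adults were gravid females of 8 to 9 days that were exposed over 3 broods, or 10 to 14 days, and frozen after the eggs had been flushed from the brood pouch. The sources used here do not state how many females stand behind an adult array, or that adult arrays are separate cultures, so the spread between them may be partly technical. In whole animals, fewer cells of a type and less RNA per cell cannot be told apart.

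Fluoxetine and fluvoxamine are selective serotonin reuptake inhibitors, drugs that block the transporter that takes serotonin back into cells. Serotonin is a signalling molecule in the nervous systems of crustaceans as it is in mammals, and in crustaceans it is known for effects on feeding, movement and reproduction. Nonylphenol forms when certain surfactants break down. The study asked whether these antidepressants alter energy metabolism, juvenile growth and offspring number. Probes were identified by array IDs alone, and 0 of these IDs were found in the RefSeq gene table (assembly ASM2063170v1.1). No function, position or sequence is therefore given for a member, and the whole-animal label could not be set against marker genes.

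Signal is given as scaled log2 intensity, the log2 of an array's processed spot signal minus the 75th percentile of that array, so that 0 is the 75th percentile. Levels of different probes are not compared. Arrays differed in brightness. The log2 of the 75th percentile lay between 6.26 and 8.92 on adult arrays and between 7.68 and 9.60 on juvenile ones, and between 54.0% and 86.6% of probes on an adult array stood well above background. Adult FX40 arrays averaged 8.45 ± 0.34, against 7.38 ± 0.74 in adult acetone (SD, n = 4 each; exact two-sided permutation p = 0.0286, the smallest that 4 against 4 arrays allow, adjusted p = 0.114 over 4 comparisons). The adjusted p was 0.229 against FV10, 0.886 against NP20 and 0.495 against NP60. The part of brightness in the members' values was not tested beyond the covariate fit given with the juveniles.

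The gap between the lowest other adult mean and the FX40 mean ran over the 60 members from 5.98 down to 1.10 on the log2 scale, with a median of 1.45 and quartiles of 1.22 and 1.83. It was over 2 for 11 members and over 3 for 5. Measured against adult acetone alone, the median difference of the members (FX40 minus acetone) was -2.03, with a range from -7.30 to -1.10, beside -0.03 over the 6364 probes. Against FV10, NP20 and NP60 the members' medians were -1.87, -1.88 and -1.92. At the limit the values were close. DM07793P1, DM06933P3 and DM04876P2 were the last in, with gaps of 1.11, 1.10 and 1.10, and DM08813P1, DM04102P1 and DM07877P1 were the first out, with 1.09, 1.08 and 1.07.

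DM07014P1 had the widest gap. In adult FX40 its scaled log2 intensity was -4.38, -3.77, -3.26 and 3.36 on arrays B, C, F and G, against 5.27, 5.43, 6.78 and 3.70 on acetone arrays B, E, F and G. Its mean was -2.01 ± 3.61 in FX40 and 5.29 ± 1.26 in acetone (SD, n = 4 each), and its values ran between 2.91 and 4.71 in FV10, 3.01 and 6.35 in NP20, and 4.67 and 6.68 in NP60. FX40 arrays B, C and F lay far under all 16 other adult arrays, whose lowest value was 2.91, and FX40 array G at 3.36 lay among them. FX40 minus acetone was -7.30, a 158-fold lower mean signal, and the spread inside the FX40 group was itself 7.75 from lowest to highest.

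DM08009P2 separated fully. It stood at -1.93, -0.24, -2.80 and 0.81 on the FX40 arrays, against 3.07, 2.82, 4.73 and 2.48 on the acetone arrays. Every FX40 value was under 1.43, the lowest of the 16 other adult values, which reached 4.73. The FX40 mean was -1.04 ± 1.63, against 3.27 ± 1.00 in acetone (SD, n = 4 each), a difference of -4.31, or 19.9-fold.

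**Figure D1:**
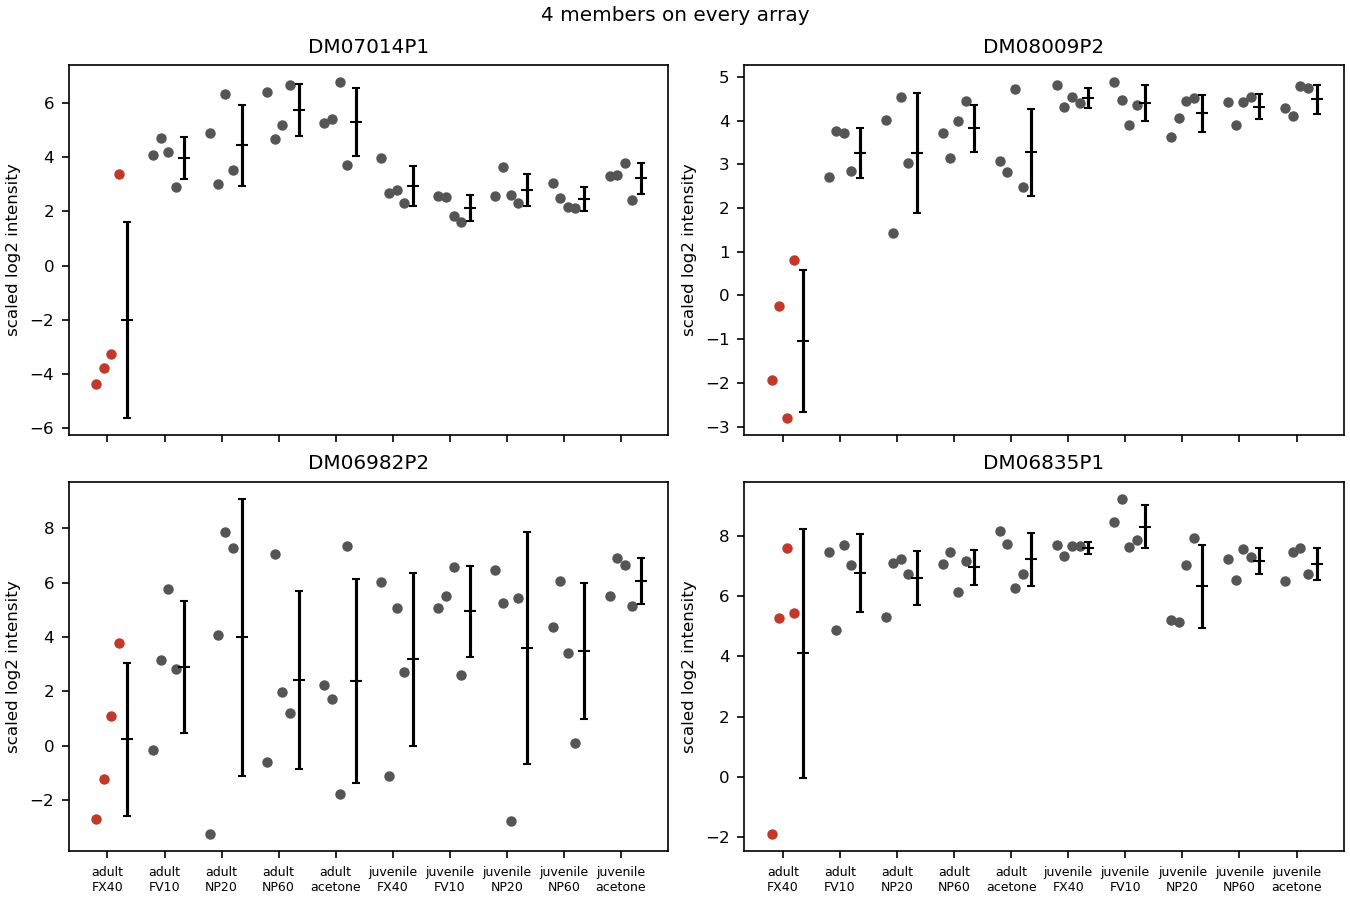
Scaled log2 intensity of 4 members on all 40 arrays, by group (points are arrays, bars the mean and SD of 4, adult FX40 in red, replicates in letter order). DM07014P1 and DM08009P2 are low on most or all adult FX40 arrays, DM06982P2 swings by many log2 units inside nearly every group, and DM06835P1 is low on 1 adult FX40 array, at -1.91.

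The other 8 of the 10 widest gaps had several shapes. DM06490P2 was at -6.39, -0.28, -3.00 and 2.09 on FX40 arrays B, C, F and G, against 1.71 to 5.24 in acetone, and was well above background on 3 of the 4 FX40 arrays. DM01839P1 was at -2.81, -1.02, -1.67 and 0.83 in FX40, against 1.60 to 3.64 in acetone. Both had array G as the highest of the FX40 group, as DM07014P1 did. DM09557P1 was at -1.47, -0.18, -3.10 and 1.24 in FX40, against 2.29 to 4.48 in acetone, and no FX40 value reached 1.32, the lowest of the other 16. DM01940P1 was at -3.77, -3.47, -6.77 and -3.90, against -2.91 to -0.51 in acetone, and DM02425P1 was at -0.31, 0.21, 0.14 and 1.81, against 1.82 to 4.35 in acetone. All 5 of these probes were lower on every FX40 array than on the acetone array with the lowest value, with the exception of array G for DM06490P2.

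In the remaining 3 of the 10 a single array was far lower than the rest. DM06835P1 was at -1.91, 5.26, 7.59 and 5.44 in FX40, against 8.17, 7.73, 6.26 and 6.75 in acetone, so that array B alone lay outside the range of the other adult arrays (4.86 to 8.17). It was saturated on 13 arrays. DM01842P2 showed the same shape, with -6.04 on array B and 1.70, 1.97 and 2.52 on C, F and G, against 2.86 to 3.59 in acetone. DM03611P1 was instead lowest on array G, at -7.38, with -3.36, -1.69 and -2.55 on B, C and F, against -0.95 to 0.92 in acetone. Its arrays B, F and G were all below the other 16 adult arrays, whose lowest value was -2.48, so that DM03611P1 was low on more than its lowest array.

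The working description of the members as probes lowered by adult fluoxetine therefore held unevenly across the 4 arrays. All 4 FX40 arrays lay below all 16 other adult arrays for 4 of the 60 members (0.141% of the 6364 probes), namely DM08009P2, DM09557P1, DM01940P1 and DM03199P4. DM03199P4 also had the narrowest FX40 range of any member, with -4.11, -3.01, -4.10 and -3.40, against -1.84, -1.63, 0.36 and -1.62 in acetone. For 11 members 3 FX40 arrays lay below all 16 (0.754% of the probes), and for 15 members 2 did (3.69%). For 26 members 1 did (22.6%), and for 4 members none did (72.8%). Those 4 were DM06982P2, DM12900P2, DM01822P3 and DM09028P1, the last 3 named for this count after their values were seen. Taken group by group, the 4 FX40 values lay wholly below the 4 acetone values for 26 members (7.02% of the probes), below FV10 for 12 (3.16%), below NP20 for 14 (0.990%) and below NP60 for 21 (1.68%). The rule chose on these contrasts, so nothing is read from the counts.

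FX40 array B carried much of the gap. It was the lowest of the 4 FX40 arrays for 40 of the 60 members and for 20.5% of the 6364 probes. It lay below all 16 other adult arrays for 44 members (9.00% of the probes), array C for 19 (8.64%), array F for 27 (9.59%) and array G for 15 (5.55%). For 23 members array B was the only FX40 array below the other 16 (6.71% of the probes). Without array B the median gap of the same 60 members was 0.94, 56 kept a gap above 0, and 29 of them were among the 60 that the rule then chose. Over all probes array B had a median correlation of 0.905 with the other adult arrays, where the adult arrays ranged from 0.873 to 0.946. Only NP20 array B was lower. On FX40 array B, 121 of the 6364 probes lay more than 2 log2 units below all 16 other adult arrays. The counts were 3 on C, 29 on F and 9 on G. Among the members they were 23 on B, 3 on C, 13 on F and 2 on G. The cause was not tested.

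DM01577P1 had the widest FX40 range and showed that array B could be low on more than 1 spot. Its values were -2.06, 7.03, 7.81 and 7.44 on FX40 arrays B, C, F and G, against 7.72, 7.63, 8.04 and 8.21 in acetone. It was spotted at 2 distant places, which read 87.4 and 78.8 intensity units on array B, against 64821 and 61576 on array C. The probe was saturated on 29 arrays, so the size of the difference is uncertain. Of the 60 members 9 had 2 spots each. On the FX40 arrays their 2 spots differed by a median of 0.433 on the log2 scale, with 26 of 36 pairs within 1. The median was 0.224 on the other adult arrays. The largest difference was 5.11, for DM01970P1 on FX40 array F, where its spots read 3575 and 103 intensity units. That member is named here for this value, and its mean on array F rests on 2 spots that disagree.

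**Figure D2:**
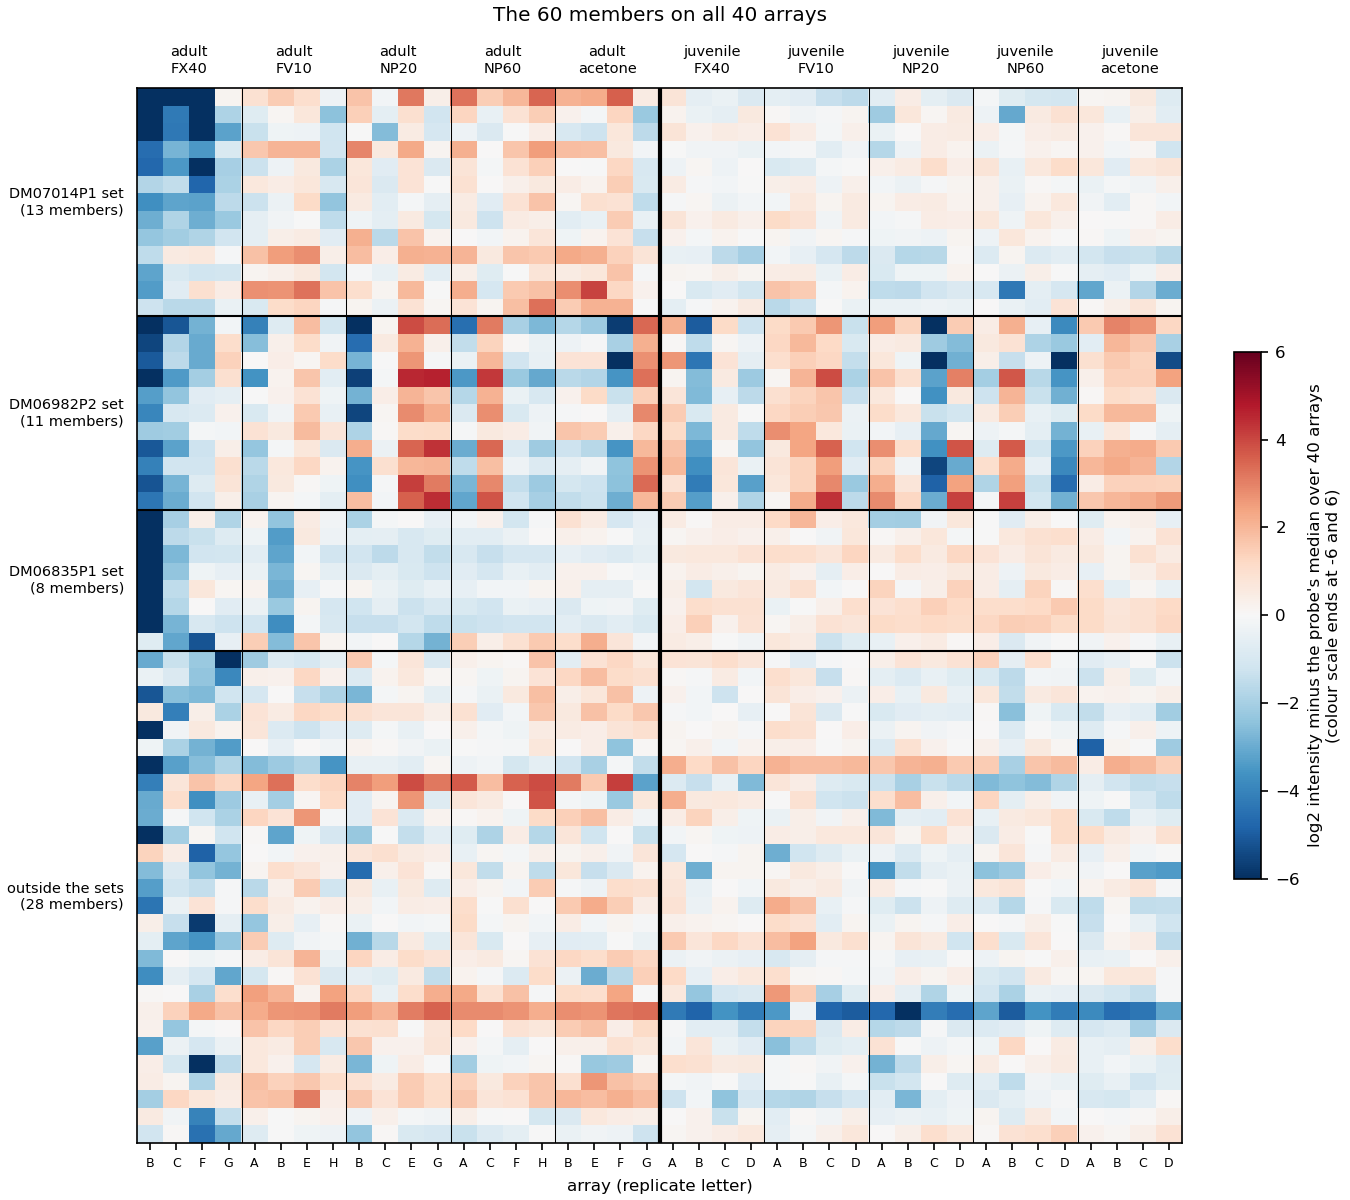
Each row is 1 of the 60 members and each column 1 of the 40 arrays, coloured by scaled log2 intensity minus the probe's median over all arrays, with the members in 3 co-moving sets and a remainder. The low values of the DM07014P1 set fall on adult FX40 arrays B, C and F, the DM06982P2 set is high or low as a block on single arrays of every group, and the DM06835P1 set is low on adult FX40 array B and, less so, on adult FV10 array B.

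Whether the members moved together was read from arrays that did not hold adult fluoxetine. Over the 16 other adult arrays, after each group's mean was taken out, members were joined by average linkage where their correlation reached 0.6, and sets of 6 or more were kept. The cut was chosen after seeing the values. Pairs of members correlated above 0.6 in 10.3% of cases, beside 4.80% of pairs among the 6364 probes, and the medians were 0.03 and 0.02. Over the 20 juvenile arrays, which the rule did not use, the shares were 8.53% and 5.86%, and the medians 0.05 and 0.02. The 16 adult arrays entered the rule through the background filter and the lowest other mean. They also share slides and the scaling, so these correlations are descriptions. There were 3 sets, with 13, 11 and 8 members, each called here by its member with the widest gap, and 28 members fell in none.

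The DM07014P1 set held 13 members, among them 7 of the 10 widest gaps and all 4 probes that separated fully. Its median value, with each probe centred on its median over 40 arrays, was -3.35, -2.09, -3.23 and -1.13 on FX40 arrays B, C, F and G, against 0.43, 0.70, 1.28 and -0.43 on acetone arrays B, E, F and G. All 4 FX40 arrays lay under the other 16 adult arrays, although FX40 array G at -1.13 was almost level with FV10 array H at -1.12. Array B lay below all 16 for 13 of the 13 members, array C for 10, array F for 11 and array G for 5. Inside the set the median correlation was 0.71 over the 16 other adult arrays and 0.17 over the 20 juvenile arrays. The set's adult values also ran against array brightness, with r = -0.47 over the 20 adult arrays and -0.48 after group means were removed, and every value is scaled by that same brightness. The part of brightness in this set's level was not tested.

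The DM06982P2 set of 11 members moved in every group. Its centred median was -5.06, -2.35, -1.16 and 0.37 on FX40 arrays B, C, F and G, against -0.54, -0.21, -2.44 and 2.69 on acetone arrays B, E, F and G. The acetone arrays alone thus spanned more than 5 log2 units, and the NP20 arrays, at -3.56, 0.05, 2.85 and 2.20, spanned more than 6. FX40 array B was the lowest of the 4 for 11 of 11 members and below all 16 other adult arrays for 8. Arrays F and G were below all 16 for 0 members, and array C for 1. The group means were -2.05 ± 2.29 in FX40, -0.18 ± 1.23 in FV10, 0.39 ± 2.89 in NP20, -0.20 ± 2.02 in NP60 and -0.12 ± 2.12 in acetone (SD, n = 4 each), and the FX40 and acetone SDs were larger than the difference between those groups. The same probes moved together in juveniles, with a median correlation of 0.78 over 20 juvenile arrays beside 0.80 over the 16 adult ones. Clustering the 60 members on the juvenile arrays alone put 11 of the 11 into 1 group of 12. Juvenile values ran from -3.64 on 1 NP20 array to 2.51 on 1 FV10 array. The set did not run with brightness, with r = -0.10 over adult and -0.05 over juvenile arrays.

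In the DM06835P1 set of 8 members 1 array stood apart. The centred median was -7.46 on FX40 array B and -2.18, -0.61 and -0.73 on C, F and G, against 0.27, -0.03, -0.38 and -0.47 in acetone. Array B was the lowest FX40 array for 7 of the 8 members and below all 16 other adult arrays for 7. FV10 array B was low as well, at -2.85, beside -0.29, 0.14 and -0.44 on FV10 arrays A, E and H. FX40 arrays F and G were inside the range of the NP20 arrays, which lay between -1.11 and -0.56. The 8 probes correlated with a median of 0.80 over the 16 other adult arrays and of 0.09 over the juvenile arrays, where the set ranged only from 0.06 to 0.88.

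The 28 members outside the sets had a centred median of -2.32, -0.47, -1.90 and -1.31 on FX40 arrays B, C, F and G, against 0.47, 0.53, 0.62 and 0.56 in acetone. All 4 FX40 medians were below those of the other 16 adult arrays, of which the lowest was -0.05. Single probes did not share this order: array B was the lowest FX40 array for 13 of the 28, array F for 9, array G for 4 and array C for 2. Array C lay below all 16 other adult arrays for 7 of them and array B for 16.

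**Figure D3:**
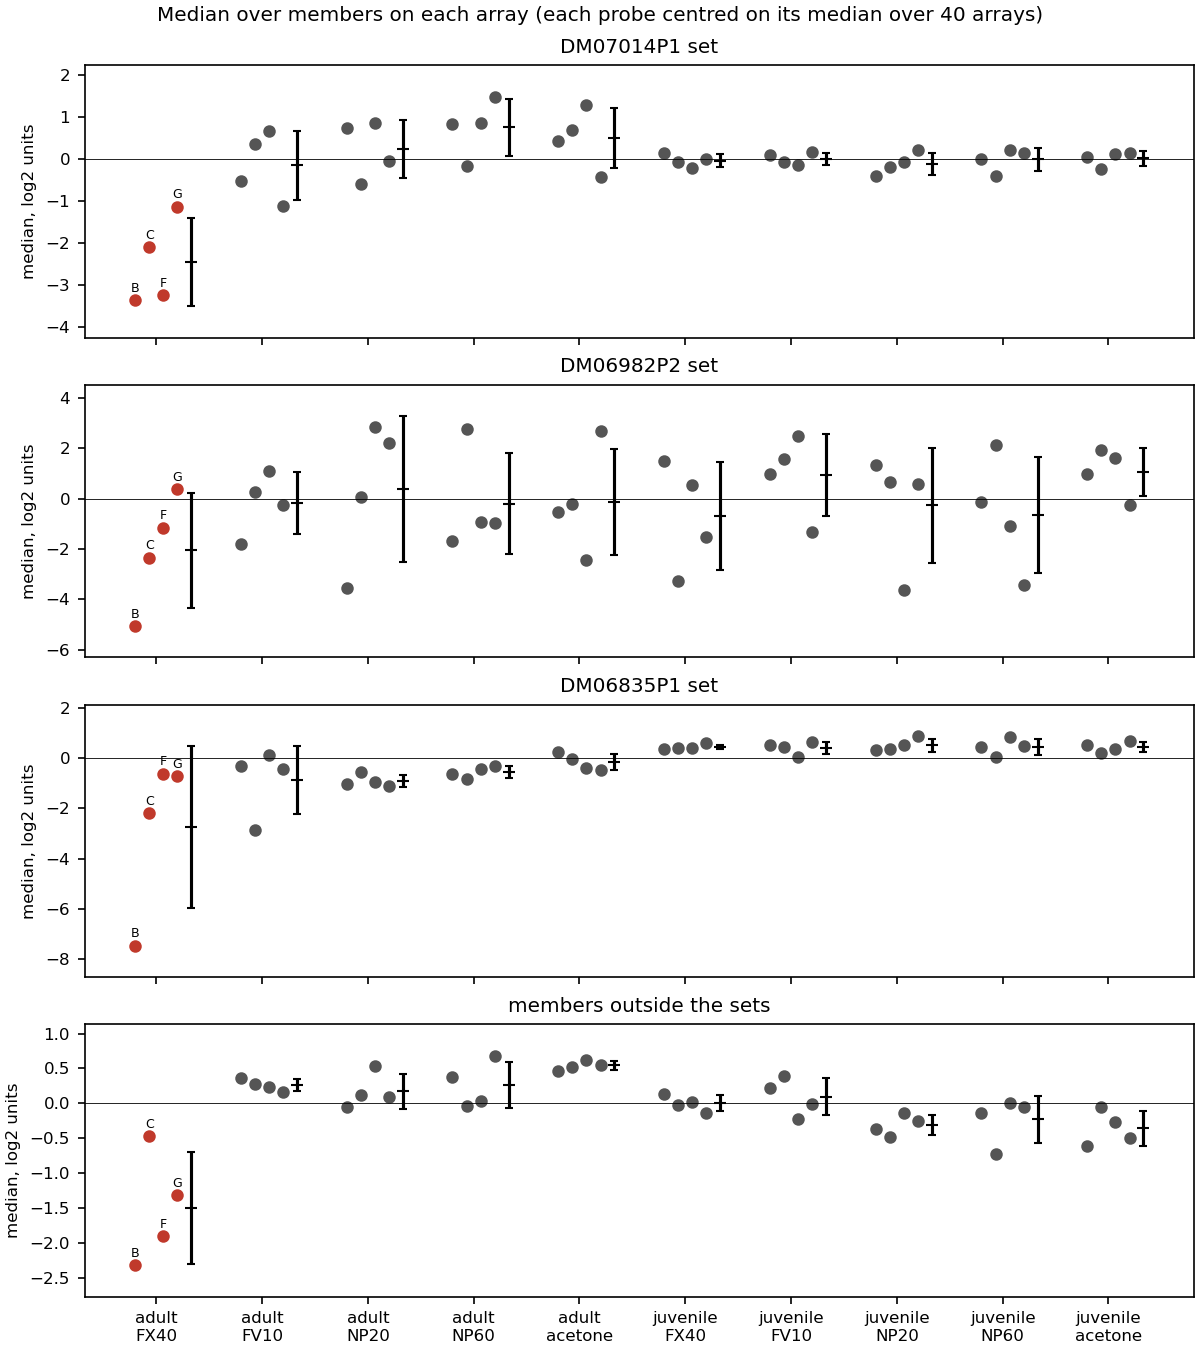
Median over the members of each set on every array, in log2 units, each probe centred on its median over 40 arrays (points are arrays, bars the mean and SD of 4, adult FX40 in red with array letters). Adult FX40 lies lowest in the DM07014P1 set and among the members outside the sets, its 4 arrays lie inside or near the range of other groups in the DM06982P2 set apart from B at -5.06, and B at -7.46 stands alone in the DM06835P1 set.

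Members were more variable than other probes outside the adult FX40 group as well. The within-group SD had a median over the members of 2.01 in adult FX40, beside 0.460 over the 6364 probes. It was 0.913 beside 0.449 in the other adult groups, which had no fluoxetine. Over the 20 juvenile arrays, juvenile FX40 included, it was 0.658 beside 0.461. Signal strength on the FX40 arrays limited some of the low values. Of the 60 members 45 were well above background on all 4 FX40 arrays, 14 on 3 and 1 on 2, and 7 members were saturated on at least 1 array.

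The other adult groups were close to each other, as the rule favours. Relative to acetone the median difference of the members was -0.23 in FV10, -0.32 in NP20 and -0.14 in NP60, beside 0.01, -0.07 and -0.08 over the 6364 probes. FV10 was below acetone for 38 members (49.2% of the 6364 probes), NP20 for 42 (55.6%) and NP60 for 33 (58.1%). These values share the acetone arrays with each other and entered the choice of members, so they carry no test.

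Arrays lay on 7 slides, and each FX40 adult array was on a slide of its own with other adult groups. Within slides the members' median difference, FX40 minus the mean of the other adult arrays of the slide, was -3.63 for array B, -1.73 for C, -2.06 for F and -0.89 for G, and 55, 52, 49 and 46 of the 60 were lower. The slides of B and C held no adult acetone array. Since those arrays also chose the members, the rule was repeated with 1 slide left out at a time, and the 60 probes it then gave were read on the left-out slide.

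On each left-out slide the median difference of the newly chosen probes was smaller in size than that of the 60 members, which were chosen with that slide included. The median difference of the newly chosen 60 probes was -0.36 on the slide of array B, -0.71 for C, -0.06 for F and 0.06 for G, beside 0.22, -0.21, 0.14 and -0.03 over all probes that could be chosen there. The new 60 were lower in FX40 for 39, 37, 31 and 29 probes. Those shares were 65.0%, 61.7%, 51.7% and 48.3%, beside 39.6%, 62.1%, 42.9% and 52.4% over all probes. In the arrays that chose them, their median gap had been between 1.38 and 2.02. That gap is taken from the lowest other group mean, so it is not the same measure as the difference within a slide.

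Being chosen with every slide left out in turn uses the values of all 4 FX40 arrays, so the 10 members for which this was so are only a description and no held-out result. All 10 belonged to the DM07014P1 set, and 21 further members were chosen with 3 of the 4 slides left out, 17 with 2 and 12 with 1. Within slides, FX40 minus the other adult arrays was -8.76, -9.31, -6.61 and -1.55 for DM07014P1 on the slides of B, C, F and G. It was -4.87, -4.39, -4.75 and -2.77 for DM08009P2, and -2.05, -1.98, -2.41 and -2.12 for DM03199P4. DM07014P1 thus differed least on the slide of G, while the values of DM03199P4 were close to each other.

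**Figure D4:**
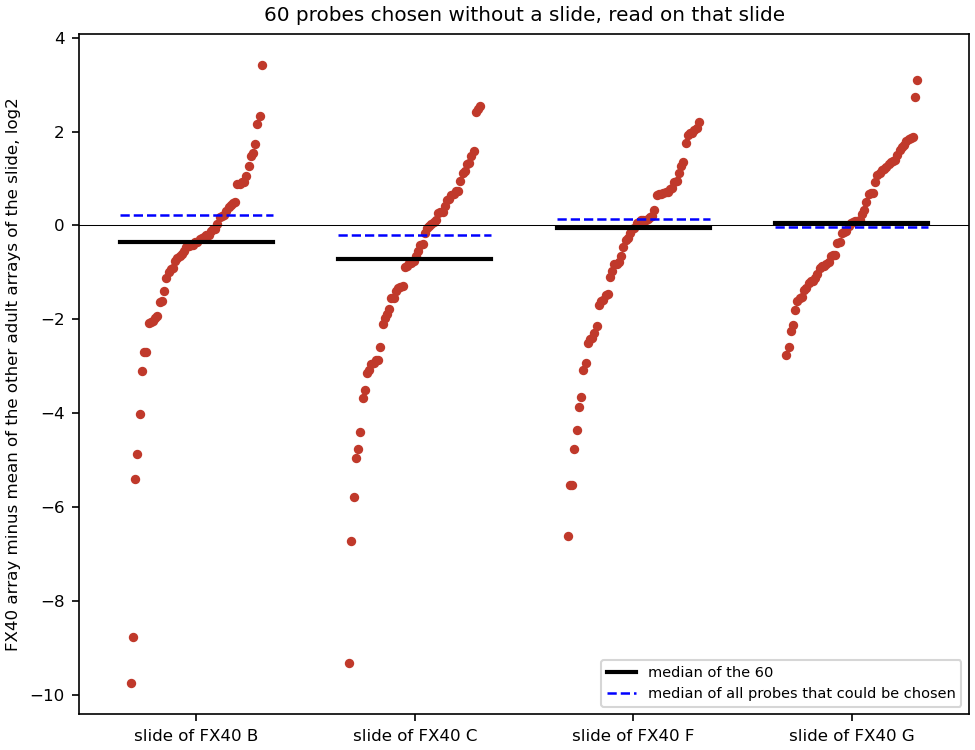
For each adult FX40 array, the 60 probes chosen without any array of its slide, read on that slide as FX40 minus the mean of the other adult arrays there (log2; points are probes in rising order, black line their median, dashed line the median of all probes that could be chosen). The medians are -0.36, -0.71, -0.06 and 0.06, beside dashed lines at 0.22, -0.21, 0.14 and -0.03, and a tail of low probes is left on the slides of B, C and F.

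Juvenile arrays took no part in choosing the members, so the members were tested there, with limma fitted to all 20 juvenile arrays and 12880 probes and p-values adjusted by Benjamini-Hochberg over all of them. All 60 members passed the juvenile filter on low signal, and 52 were well above background on all 20 juvenile arrays. In juvenile FX40 against acetone 0 of the 60 members passed an adjusted p of 0.05 (0.00776% of all probes did), and 9 had an unadjusted p under 0.05 (8.45% of all probes). The members' median log2 change was 0.03, beside 0.05 over all tested probes, with 31 above 0 and 29 below. The 95% interval of a member's change reached a median of 0.947 to either side, and for 35 of the 60 it lay wholly above -1.

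DM07014P1 was at 3.98, 2.67, 2.78 and 2.31 in juvenile FX40, against 3.33, 3.35, 3.77 and 2.42 in juvenile acetone, and the groups overlapped. Its log2 change was -0.28 (SE 0.40, 95% interval -1.12 to 0.56, limma adjusted p = 0.912). DM08009P2 was at 4.82, 4.31, 4.55 and 4.41 in juvenile FX40, against 4.30, 4.10, 4.79 and 4.76 in acetone. Its change was 0.04 (SE 0.27, 95% interval -0.53 to 0.60, limma adjusted p = 0.988). Over all 20 juvenile arrays DM08009P2 lay between 3.63 and 4.88.

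The sets did not share a juvenile level. In the DM07014P1 set the FX40 minus acetone change had a median of 0.04 over 13 members and a range of -0.45 to 1.38, and in the DM06835P1 set a median of 0.10 over 8 members and a range of -0.28 to 0.52. In the DM06982P2 set 10 of the 11 changes were below 0, with a median of -1.49, and 0 of them had an unadjusted p under 0.05. The 95% intervals of these 11 reached a median of 3.19 to either side. Against the same acetone arrays the 11 probes had medians of -0.20 in FV10, with 4 above 0 and 7 below, of -1.02 in NP20 and of -1.61 in NP60. Adult and juvenile changes under FX40 were not tested against each other, since the adult arrays chose the members.

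**Figure D5:**
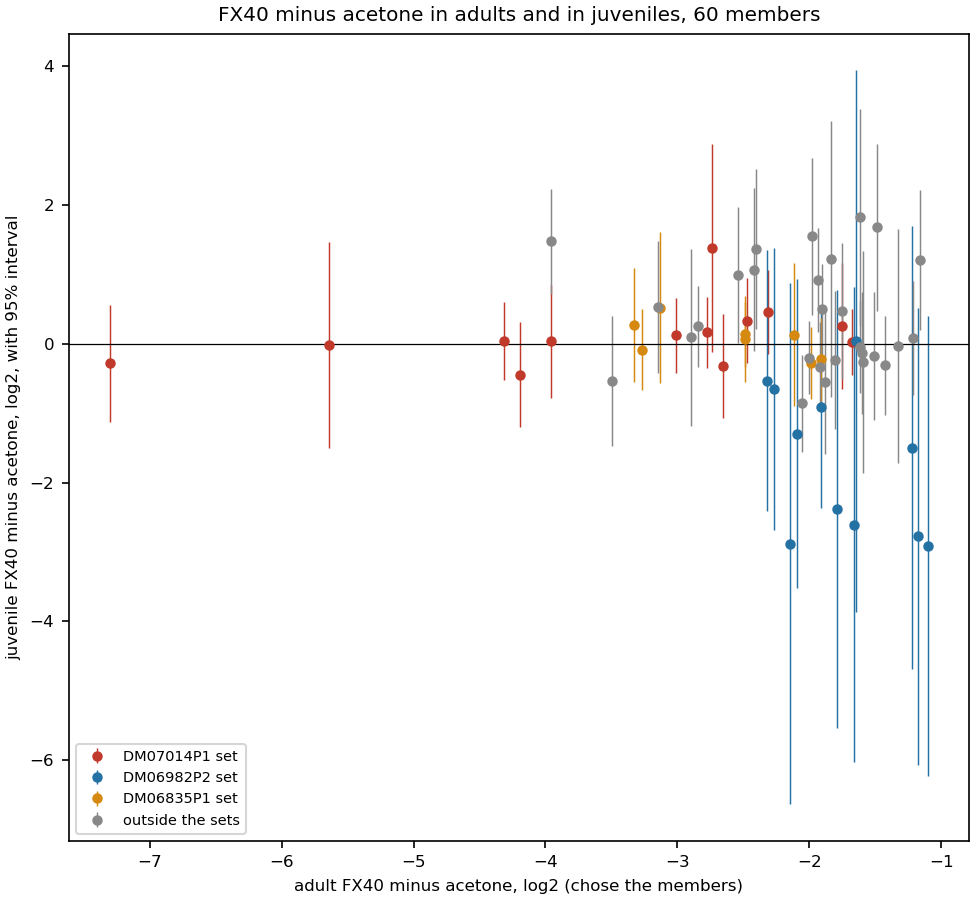
Adult FX40 minus acetone (x axis, log2, the contrast that chose the members) against juvenile FX40 minus acetone (y axis, log2, with its 95% interval) for the 60 members, coloured by set. Juvenile changes of the DM07014P1 set lie between -0.45 and 1.38 whatever the adult difference, and the DM06982P2 set has the widest intervals.

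Among the members, juvenile calls were made only in the fluvoxamine comparison. In juvenile FV10 against acetone 4 of the 60 members rose (adjusted p under 0.05 in limma) and 0 fell, while 17 had an unadjusted p under 0.05 (26.4% of all probes). Over all 12880 tested probes 7.88% were called, 5.22% as higher and 2.66% as lower, so the members' 4 are near the background share. The members' median change was 0.31, beside 0.20 over all tested probes. It was 0.04 beside 0.19 without acetone array D, 0.04 beside 0.15 without FV10 array B, and 0.168 beside 0.195 with outlier spots left out, so in these 3 settings the members' median lay below that of all tested probes. With quantile normalization those medians were 0.10 and -0.02, and the share of calls that were higher fell to 48.5%, against 66.2% with scaling to the 75th percentile. The 4 members that rose did so under both scalings, but with quantile normalization 3 further members were called as lower.

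DM07083P1, of the DM07014P1 set, rose most, at 1.47, 1.30, -0.37 and -0.03 on FV10 arrays A to D, against -3.35, -0.59, -1.98 and -3.22 on acetone arrays A to D. All 4 FV10 values were above all 4 acetone values, and the log2 change was 2.88 (SE 0.71, limma adjusted p = 0.0274). DM08234P1 was at 1.66, 2.18, 0.37 and 0.77 in FV10, against -1.07, -0.02, 0.23 and -1.79 in acetone, again without overlap, for a change of 1.91 (SE 0.54, limma adjusted p = 0.0392). DM01450P1 was at 1.46, 0.97, -1.22 and -0.83, against -2.29, -0.66, -2.24 and -2.20, and DM07863P2 was at -2.57, -2.57, -4.78 and -3.47, against -4.89, -4.72, -5.90 and -4.78. In all 4 of these members FV10 arrays A and B were higher than C and D. Arrays A and B were also the dimmest juvenile arrays, with a log2 75th percentile of 7.68 on each. For DM01450P1 and DM07863P2 at least 1 FV10 value lay within the acetone range. Their changes were 1.94 (SE 0.56, limma adjusted p = 0.0426) and 1.72 (SE 0.47, limma adjusted p = 0.0341). DM07863P2 passed the background test on 4 of 4 arrays in FV10 and on 3 of 4 in acetone.

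These 4 calls depended on the setting. With slide as a block 0 members were called, with log2 changes between 1.49 and 3.08 for the 4 (limma adjusted p from 0.0979 to 0.161), and with brightness as a covariate 0 were called, with changes between 0.98 and 1.41 (limma adjusted p from 0.421 to 0.554). FV10 and acetone shared 2 slides with 1 array of each. There DM07083P1 differed by 2.85 and 4.65, DM08234P1 by 2.16 and 3.26, DM01450P1 by 0.98 and 3.27, and DM07863P2 by 0.00 and 2.31. Calls also went to 0 without FV10 array A or B, or without acetone array A, C or D. They went to 7 without acetone array B (6 higher, 1 lower) and to 9 without FV10 array C (6 higher, 3 lower). Without FV10 array D they went to 8 (4 higher, 4 lower). With normexp background correction they went to 0, and DM07863P2 changed by 0.04.

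Nonylphenol called no member in juveniles. At NP20 0 of 60 passed in limma (0.00% of 12880 probes), 5 had an unadjusted p under 0.05 (5.94% of all probes), and the median change was -0.10, beside 0.01 over all tested probes. At NP60 0 of 60 passed (0.00%), 5 had an unadjusted p under 0.05 (5.43%), and the median was 0.08, beside 0.05. The lowest adjusted p of any member was 0.223 in FX40, 0.773 in NP20 and 0.724 in NP60, and in each of these comparisons, which share the acetone arrays, it belonged to DM03611P1. That probe was at 0.48, 0.43, 0.72 and 0.40 in juvenile FX40, against -1.04, -0.84, -0.38 and -1.63 in juvenile acetone, so the groups did not overlap. Its differences from acetone were 1.48 in FX40, 1.28 in NP20 and 1.06 in NP60 (SE 0.36 in each).

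Between stages the members' median was close to that of the other probes. In acetone the juvenile minus adult difference had a median of -0.19 over the members and -0.22 over the 6364 probes, and 25 of the 60 were higher in juveniles, beside 40.7% of the probes. The range was wide, with 10 members more than 2 log2 units lower in juveniles and 5 more than 2 higher. DM01555P3 was the lowest in juveniles relative to adults, at -5.28 ± 0.64 in juvenile acetone and 1.69 ± 0.33 in adult acetone (SD, n = 4 each). It was above background on only 8 of the 20 juvenile arrays, so the difference of -6.97 is uncertain in size. DM06982P2 was the highest relative to adults, at 6.05 ± 0.86 in juvenile acetone and 2.38 ± 3.75 in adult acetone (SD, n = 4 each). Its 4 adult acetone arrays ran from -1.77 to 7.35, a spread larger than the difference of 3.67.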

How the data were processed

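RNA of whole animals was labelled with 1 dye and hybridised to 40 arrays of 15744 spots. The deposited scanner files give spot intensity: per the file headers, Agilent Feature Extraction (version 10.7.3.1) made the processed signal that was used here. The authors also deposited a log2 table of the same arrays, which served as an alternative; the sources used here do not say how its values were scaled.

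From the intensity of the 15208 spots that were not controls, log2 values were taken, each array's 75th percentile was subtracted, and the spots of 870 probes with 2 spots were averaged. The 60 members, the lists and the sets were chosen with earlier results of these data known. Probes were named by these rules: the 2 markers, the 10 widest gaps, the 3 members just inside and 3 probes just outside the limit, members called in a juvenile comparison, and the extremes of FX40 range and of stage difference. The rule's highest and lowest level was not used, because levels of different probes are not comparable, and its part on shared ID numbers found 0 members.

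Juvenile groups were each compared with acetone in limma 3.58.1 (R 4.3.3) on all 20 juvenile arrays and on probes well above background on at least 4 of them, with Benjamini-Hochberg adjustment and a threshold of 0.05. Brightness was compared by exact permutation (scipy). The fit was tested on simulated data for juvenile FX40 against acetone on 12880 probes. It called 24% of the probes given a log2 change of 1, and 60%, 86% and 88% at changes of 2, 3 and 4. The false share of the calls was 6.52%. On the real arrays this comparison called 1 of the 12880 probes. The simulated shares are not specific to the members. The members' median within-group SD over the 20 juvenile arrays was 0.658, beside 0.461 over the probes they were chosen from. The share called among probes as variable as the members was not tested. The number of arrays limits precision: 4 per group. The highest correlation between 2 arrays was 0.974, and no array was counted as a repeat.

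Replicate letters recur between juvenile groups and did not pair them: same-letter arrays had correlations of their deviations from -0.20 to 0.21, and 3 of 16 were above 0.1. Alternatives were normexp correction (offset 50, on median signals because the files hold no mean signals), quantile normalization, the deposited log2 table, other filters, outlier spots left out, only the 8 arrays compared, replicate, slide and brightness terms, and arrays or slides left out.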

Additional observations from a re-analysis of the deposited data

Results flagged for a closer look

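Values that stood apart from the other 3 arrays of their group were looked for in 89 groups of 4, of which chance marks about 1 in 20. The 11 found include probes that were chosen for extreme values. The part of chance or of any cause in them was not tested. In adult FX40, DM07014P1 was high on array G at 3.36, with the others between -4.38 and -3.26. DM01940P1 was low on array F at -6.77, with the others between -3.90 and -3.47, and DM01842P2 was low on array B at -6.04, with the others between 1.70 and 2.52. DM01577P1 was low on array B at -2.06, with the others between 7.03 and 7.81, and DM07863P2 was low on array C at -6.20, with the others between -4.04 and -3.63.

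Adult acetone array E was dim, with a log2 75th percentile of 6.26, where the others were between 7.74 and 7.77. Among juveniles, the median of all 60 members was low on NP60 array B at -0.37, with the others between -0.03 and 0.01. The median of the DM06982P2 set was low on NP20 array C at -3.64, with the others between 0.57 and 1.33. The median of the DM06835P1 set was high on FX40 array D at 0.59, with the others between 0.38 and 0.41. In juvenile acetone, DM01450P1 was high on array B at -0.66, with the others between -2.29 and -2.20, and DM07863P2 was low on array C at -5.90, with the others between -4.89 and -4.72. Both of these arrays enter the FV10 comparison in which the 2 probes were called.

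For 6 of the 21 named members, and 12 of all 60, every adult FX40 array lay below the adult acetone mean and every juvenile FX40 array above the juvenile acetone mean, as was so for 6.58% of the 6364 probes. The adult direction was favoured by the choice of members. Every adult FX40 array lay below the adult acetone mean for 39 members and for 1350 of the 6364 probes. Of those, 12 members and 419 probes had every juvenile FX40 array above the juvenile acetone mean, which are similar shares. The difference between the stages was not tested, since the adult arrays chose the members. DM03611P1 differed from acetone by -3.96 in adults and 1.48 in juveniles, DM01577P1 by -2.84 and 0.26, and DM03199P4 by -2.47 and 0.33. DM07083P1 differed by -2.74 and 1.38, DM01450P1 by -2.42 and 1.07, and DM08234P1 by -1.98 and 1.55.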

How the results depend on the processing

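In juvenile FX40, NP20 and NP60 the count of members called stayed at 0 in the 54 alternatives run, the replicate block included. In FV10 the count of 4 was 0 with normexp correction, only the 8 arrays compared, slide as a block or brightness as a covariate. It was also 0 with arrays A and B left out together (added after seeing the data). It was 7 with quantile normalization or the deposited table (4 higher and 3 lower in each). With the replicate block it was 3 (2 higher, 1 lower). There DM01450P1 and DM07863P2 were no longer called (limma adjusted p = 0.0518 and 0.0503). With each array left out the count was 0 to 9. The members' median FV10 change was 0.00819 with the brightness covariate and -0.0814 without arrays A and B, and their NP60 median was -0.12 with normexp; the cause was not tested. These were 3 of 73 medians recomputed. The others moved by under 1 SD of the members' median between the 4 treated arrays, which is not the error of the change. For FV10 that SD was 0.293, beside a median change of 0.309. The FV10 median was thus counted as unmoved at 0.0398 without acetone array D and at 0.0436 without FV10 array B. Choosing again kept 35 of the 60 members with no filter on dim probes, 27 without slide 2, 38 without slide 4 and 29 to 59 with each adult array left out, array B of FX40 giving 29. Their median gap stayed between 0.91 and 1.82, and FX40 minus acetone between -2.56 and -1.34. The DM07014P1 set had 20 members at a correlation of 0.4 and 14 at 0.5. Dim FX40 spots and 4 arrays a group limit what can be told apart.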

Other observations

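Probes outside the 60 followed the same courses. Over the 16 adult arrays without fluoxetine, 50 further probes correlated above 0.8 with the mean course of the DM07014P1 set, and the adult FX40 mean was below the acetone mean for 48 of them, with a median difference of -0.75. Over the 6364 probes 52.3% were lower in FX40 than in acetone, and probes picked for following 1 course are not separate observations. For the DM06982P2 set there were 66 such probes, 53 of them lower in FX40 with a median of -0.51, and 33 probes ran the opposite way at a correlation below -0.8. For the DM06835P1 set there were 12, of which 11 were lower in FX40, with a median of -1.30. Of all probes that followed the DM06982P2 set in adults, members included, 43 of 75 also did so above 0.8 in juveniles, beside 2 of 59 for the DM07014P1 set and 0 of 19 for the DM06835P1 set. The arrays share slides and scaling.

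Spots of the members were in the outer 2 rows or columns of the array in 18.8% of cases, 13 of 69, beside 6.65% of all spots. The part of position in the members' values was not tested.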
